A study of Rattus norvegicus with 32 samples.

Results

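The transcripts of 7 epithelial genes were followed in liver sinusoidal endothelial cells (LSECs) of the rat: the keratins Krt7 (ENSRNOG00000008057), Krt8 (ENSRNOG00000009779), Krt18 (ENSRNOG00000047393) and Krt19 (ENSRNOG00000014233), the adhesion molecules Epcam (ENSRNOG00000015667) and Cdh1 (ENSRNOG00000020151), and the transcription factor Sox9 (ENSRNOG00000002607). They were chosen by symbol, as genes used to mark the bile duct epithelium and other keratin-bearing cells of the liver, and all 7 were found among the 32623 genes of the tables. RNA was sequenced from 32 LSEC preparations. In the carbon tetrachloride (CCl4) experiment, Wistar Han rats inhaled this hepatotoxin and drank water with phenobarbital, and LSECs came from 6 untreated (healthy) rats, 5 rats after 2 weeks (acute), 5 after 6 weeks (fibrosis) and 6 with cirrhosis, a group to which the study assigns 12 to 14 weeks. A further 10 libraries belong to an experiment with thioacetamide (TAA), another hepatotoxin, in which 5 are labelled control and 5 TAA control. The labels do not settle which of these groups received TAA, and they name Wistar Han rats where the study describes Sprague-Dawley rats, so no direction of treatment is given for them. The cells were separated from the liver on an iodixanol density gradient, and animals were killed 5 to 7 days after the last dose of the toxicant, and the density step does not select cells by a surface marker.

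Keratins are the intermediate filaments of epithelia, and they assemble as pairs of a basic type II chain (Krt7, Krt8) with an acidic type I chain (Krt18, Krt19). In the liver, hepatocytes carry the pair of Krt8 and Krt18, while the bile duct cells (cholangiocytes) add Krt7 and Krt19, which are also made by the mesothelial cells that cover the organ. Epcam encodes an adhesion glycoprotein of cholangiocytes and of progenitor cells, Cdh1 encodes E-cadherin, the adhesion molecule of epithelial adherens junctions, and Sox9 encodes a regulator of bile duct development. Endothelial cells rely instead on vimentin for their intermediate filaments.

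The genes Krt8 and Krt18 are neighbours on the same chromosome, and because they changed together in the libraries described below, the 250 bases before their start sites are shown, with those of Epcam for contrast. RefSeq promoters of assembly GRCr8 were at hand for 3 of the 7 genes. Krt8 lies at chr7:135010340-135010589 on the minus strand, Krt18 at chr7:135035918-135036167 on the plus strand, and Epcam at chr6:12649679-12649928 on the minus strand. Capitals mark matches to 4 motifs, searched on both strands. The TATA box was searched as TATAAA. The letters GGGCGG stood for the GC box. For the E2 box, which repressors of E-cadherin bind, the letters were CAGGTG, read on the opposite strand as CACCTG. The AP-1 site was searched as TGACTCA.
Krt8: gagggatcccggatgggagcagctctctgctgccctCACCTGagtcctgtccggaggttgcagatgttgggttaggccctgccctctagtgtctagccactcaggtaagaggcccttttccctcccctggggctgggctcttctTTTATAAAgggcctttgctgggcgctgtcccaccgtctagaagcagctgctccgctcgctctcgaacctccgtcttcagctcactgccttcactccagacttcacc
Krt18: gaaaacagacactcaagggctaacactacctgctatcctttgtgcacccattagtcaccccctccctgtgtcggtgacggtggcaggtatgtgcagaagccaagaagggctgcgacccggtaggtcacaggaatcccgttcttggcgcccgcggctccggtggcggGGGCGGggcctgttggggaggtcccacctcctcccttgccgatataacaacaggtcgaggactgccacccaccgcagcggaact
Epcam: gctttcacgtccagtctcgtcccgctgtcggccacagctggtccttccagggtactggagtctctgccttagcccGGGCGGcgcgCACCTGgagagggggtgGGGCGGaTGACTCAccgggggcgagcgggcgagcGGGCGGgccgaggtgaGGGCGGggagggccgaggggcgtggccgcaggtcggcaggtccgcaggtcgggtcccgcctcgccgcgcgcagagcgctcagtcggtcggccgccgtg
Krt8 held TATAAA on both strands, in matches that overlap between 106 and 99 bases before the start, and CACCTG 214 to 209 bases before it. Krt18 held a single GGGCGG, 84 to 79 bases before its start, and no TATAAA in these letters. Epcam held 4 copies of GGGCGG, with CACCTG at 165 to 160 and TGACTCA at 141 to 135 bases before the start. Among 33465 rat promoter windows of the same length, TATAAA occurred in 12.9%, GGGCGG in 30.5%, CAGGTG in 15.9% and TGACTCA in 4.05%. The windows of Krt8 (60% G and C), Krt18 (62%) and Epcam (75.6%) were richer in G and C than the median window (51.2%). The paired keratins thus shared none of the searched motifs in these windows.

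Libraries held between 25646531 and 46464289 counts, so that a count of 0 allowed a level of up to 0.0596 to 0.123 CPM (counts scaled to a common library total), a limit of 3 counts that covers counting error only. Levels are given as CPM scaled by TMM factors within the CCl4 experiment and separately within the TAA experiment, which makes levels comparable inside but not across the 2 experiments, and not between genes, since they are not divided by length. The 15 LSEC markers in the tables were detected in each group, but their summed level lay at 21947 to 37531 CPM in healthy, 4790 to 5684 CPM in acute, 3416 to 4640 CPM in fibrosis and 19252 to 24607 CPM in cirrhosis libraries. Markers of other cells were present too, and the 20 hepatocyte markers summed to 1518 to 34565 CPM in healthy, 172 to 1103 CPM in acute, 1676 to 6905 CPM in fibrosis and 3706 to 17516 CPM in cirrhosis libraries. In such bulk RNA, fewer cells of a type and less RNA per cell cannot be told apart. Libraries were taken as replicates from the labels, which do not tie them to separate animals one by one, so p-values measure the spread between these libraries.

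The stages of CCl4 injury differed in how many of the genes moved and which way. A gene was called where limma-voom gave a Benjamini-Hochberg adjusted p under 0.05 over all genes tested and a fold above 1.5. In acute LSECs, 5 of the 6 genes tested were down-regulated against healthy LSECs and 0 up-regulated, where 37.9% of all genes were called lower and 73.4% were called in either direction. In fibrosis, 1 of 6 was up-regulated, where 35.3% of all genes were called higher than in healthy LSECs, and 2 were down-regulated, where 34.9% were called lower (70.2% in either direction). In cirrhosis against healthy, 1 of 7 was up-regulated, where 27.1% of all genes were called higher and 51.8% in either direction. With an unadjusted p under 0.05, the study's own rule, 2 of 7 were called in cirrhosis, beside 54.5% of all genes. These 3 comparisons share the healthy libraries. Between stages, fibrosis against acute gave 4 of 4 tested genes up-regulated where 10.2% of all genes were called higher and 11% in either direction. Cirrhosis against fibrosis gave 3 up-regulated of 7, where 34.3% of all genes were called higher, and 2 down-regulated, where 29.5% were called lower (63.8% in either direction). Cirrhosis against acute gave 7 up-regulated of 7, where 37.5% of all genes were called higher and 69.3% in either direction. A gene with almost no reads in 1 group could pass the filter on low counts only through the other, which fixed its direction. This held for Krt7, Krt19 and Sox9 where tested against acute (23, 4 and 3 acute reads). It also held for Krt19 and Sox9 where tested against fibrosis (16 and 8 fibrosis reads), and for Krt19 in fibrosis against healthy. A weaker form held where 1 group fell short of the filter alone and the higher group was needed, which favoured 1 direction. This concerned Krt7 in fibrosis against healthy, Epcam in fibrosis and cirrhosis against healthy, and Sox9 in cirrhosis against healthy. The members' median log2 fold change was -3.17 in acute against healthy, where that of all genes was -0.09, and 4.02 in fibrosis against acute, where that of all genes was 0.0043. Counting genes whose libraries did not overlap between groups, whether tested or not, gave 3 of 7 in acute against healthy (60% of all genes tested), 3 in fibrosis against healthy (58.7%), 1 in cirrhosis against healthy (27.2%), 5 in fibrosis against acute (17.2%) and 5 in cirrhosis against fibrosis (63.3%).

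**Figure D1:**
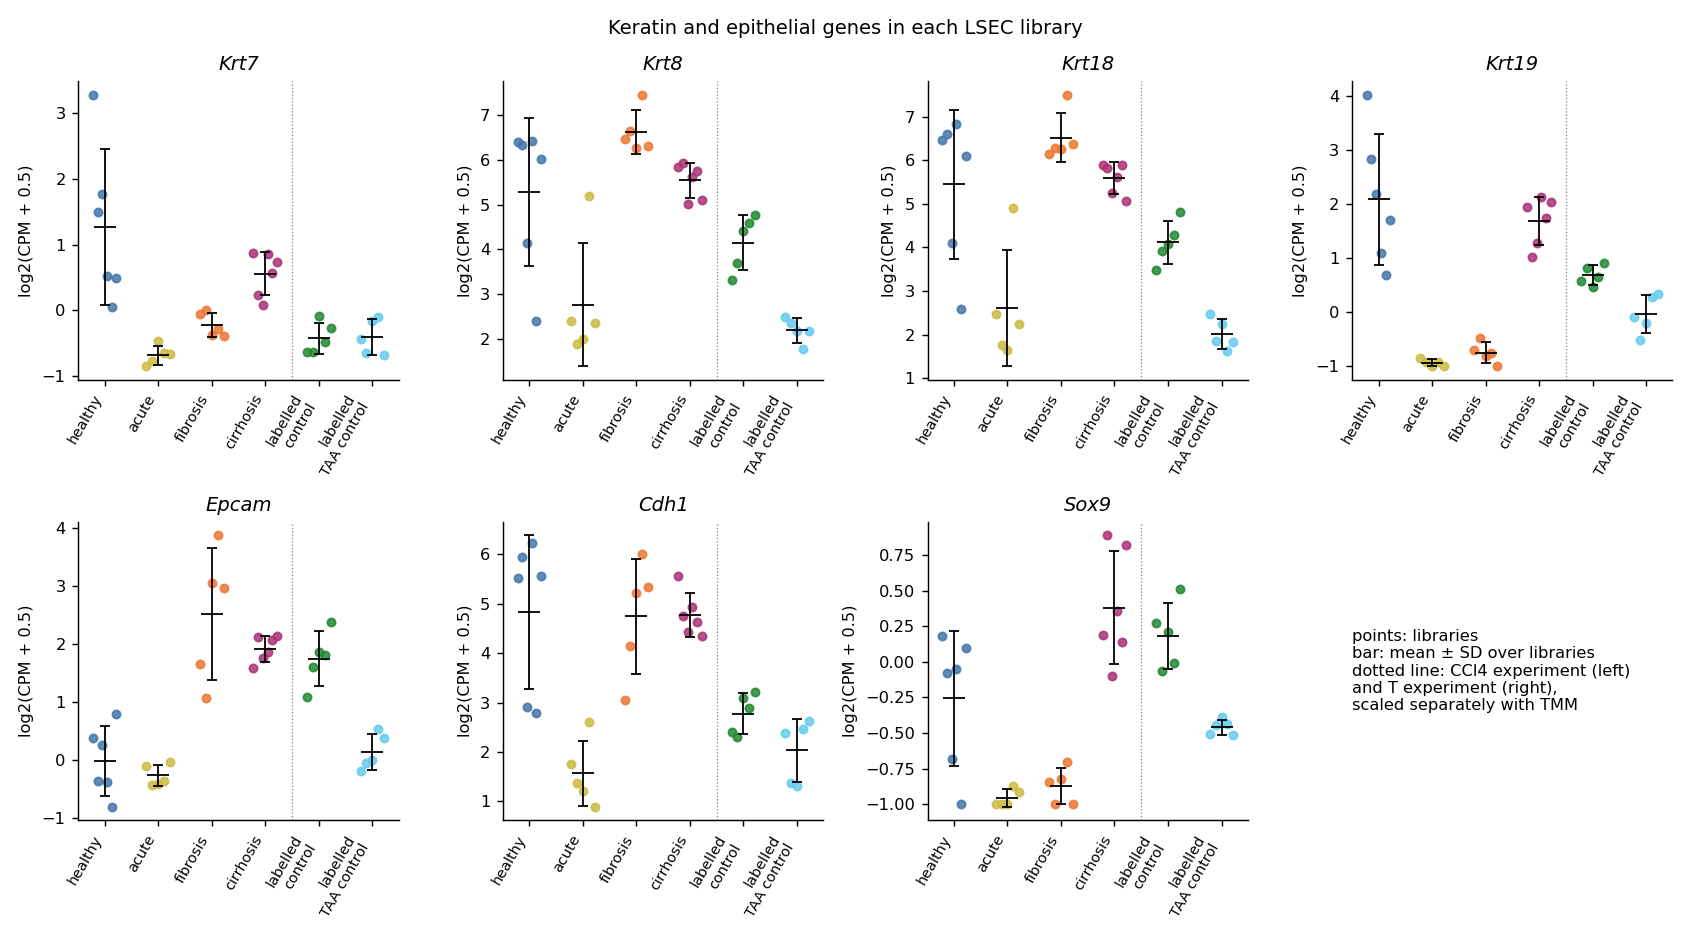
Level of each gene in every LSEC library as log2(CPM + 0.5), with the libraries of a group side by side as points and the mean and SD of the group as a bar. Among the CCl4 groups the acute libraries sit lowest for Krt7 and Cdh1, 1 acute library (replicate 4) stands above the other 4 in Krt8 and Krt18, and Epcam is higher in the 5 fibrosis and 6 cirrhosis libraries than in all 6 healthy ones.

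Krt8 and Krt18, the keratin pair of hepatocytes, fell in the acute stage and were higher in fibrosis than in acute or cirrhosis LSECs. Krt8 ranged from 4.72 to 85.3 CPM in the 6 healthy libraries, with a median of 72.2 CPM. In the acute libraries it was at 4.79, 3.16, 3.47, 35.8 and 4.61 CPM (replicates 1, 2, 3, 4 and 8). The groups overlapped, because replicate 5 of the healthy group (4.72 CPM) lay among the acute libraries and acute replicate 4 above healthy replicates 3 (17.2 CPM) and 5. The fall was -2.55 on the log2 scale (SE 0.92, adjusted p = 0.0231), or 5.87-fold. Leaving out acute replicate 4 gave -3.22 (adjusted p = 0.0102) and leaving out healthy replicate 5 gave -3.17. The call was lost without healthy replicate 6 (adjusted p = 0.0539), acute replicate 2 (adjusted p = 0.0555) or acute replicate 3 (adjusted p = 0.054), and when libraries were scaled by their totals without TMM (log2 fold change -2.16, adjusted p = 0.0502).

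Krt18 followed the same course. Its healthy libraries ran from 5.47 to 113 CPM with a median of 77.9 CPM, and its acute libraries held 5.04, 2.91, 2.64, 29.6 and 4.26 CPM. Here too acute replicate 4 was the highest of its group and healthy replicate 5 the lowest of its own. The decrease was -2.88 (SE 0.95, adjusted p = 0.0143), and it was -3.52 without acute replicate 4 and -3.49 without healthy replicate 5. In fibrosis, Krt8 reached 88.1, 99.3, 76.8, 176 and 78.7 CPM (replicates 12, 13, 15, 16 and 17) and Krt18 69.6, 77.5, 76.5, 181 and 82.9 CPM. Every fibrosis library was above every acute one for both genes. Against acute LSECs, Krt8 rose 16.1-fold (log2 fold change 4.01, SE 0.56, adjusted p = 0.00363) and Krt18 16.7-fold (4.06, SE 0.58, adjusted p = 0.00363). Without acute replicate 4 these increases were 4.72 for Krt8 and 4.74 for Krt18, while for Krt8 edgeR gave 3.39 and DESeq2 3.41. Against healthy LSECs, fibrosis did not pass the test for Krt8 (log2 fold change 1.44, 95% confidence interval -0.07 to 2.94, adjusted p = 0.0773) or for Krt18 (1.16, adjusted p = 0.161), and the Krt18 medians of fibrosis (77.5 CPM) and healthy (77.9 CPM) libraries were close. Without healthy replicate 5 the estimates were 0.82 for Krt8 (adjusted p = 0.102) and 0.55 for Krt18 (adjusted p = 0.318). Krt8 passed when the 4 CCl4 groups were fitted together (1.36, adjusted p = 0.0423) or without TMM (1.83, adjusted p = 0.0282).

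In cirrhosis, Krt8 ranged from 31.8 to 60.7 CPM (median 51.4 CPM) and Krt18 from 32.9 to 59.2 CPM (median 52.3 CPM). All 6 cirrhosis libraries were below all 5 fibrosis libraries for both genes. The decrease was -1.09 for Krt8 (SE 0.24, adjusted p = 0.0011) and -0.93 for Krt18 (SE 0.25, adjusted p = 0.00432). In a single fit over the 4 CCl4 groups neither decrease passed (adjusted p = 0.103 and 0.169). Cirrhosis against healthy gave 0.29 for Krt8 (95% confidence interval -1.07 to 1.65, adjusted p = 0.709) and 0.17 for Krt18 (-1.22 to 1.56, adjusted p = 0.834). These estimates were positive although the mean CPM was lower in cirrhosis for Krt8 (47.7 ± 12.1 against 56.0 ± 35.9, SD, n = 6 and 6) and for Krt18 (48.9 ± 11.4 against 64.6 ± 44.0). Healthy replicates 3 and 5 were far under the other 4, and without replicate 5 the estimate was -0.32 for Krt8 and -0.44 for Krt18.

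The counts of the pair kept close to a fixed proportion while their level moved. The ratio of Krt8 to Krt18 counts within a library, which no scaling can alter, lay between 0.756 and 1.46 in all 32 libraries, around a median ratio of 1. By group its median was 0.91 in healthy, 1.09 in acute, 1 in fibrosis and 0.98 in cirrhosis libraries. Krt8 counts over the same libraries ran from 73 to 6138. Part of the Krt18 reads were shared by the counting between this gene and other loci, as its expected count was not a whole number in 18 of 32 libraries, against 9 of 32 for Krt19 and 0 of 32 for each of the other 5 genes.

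**Figure D2:**
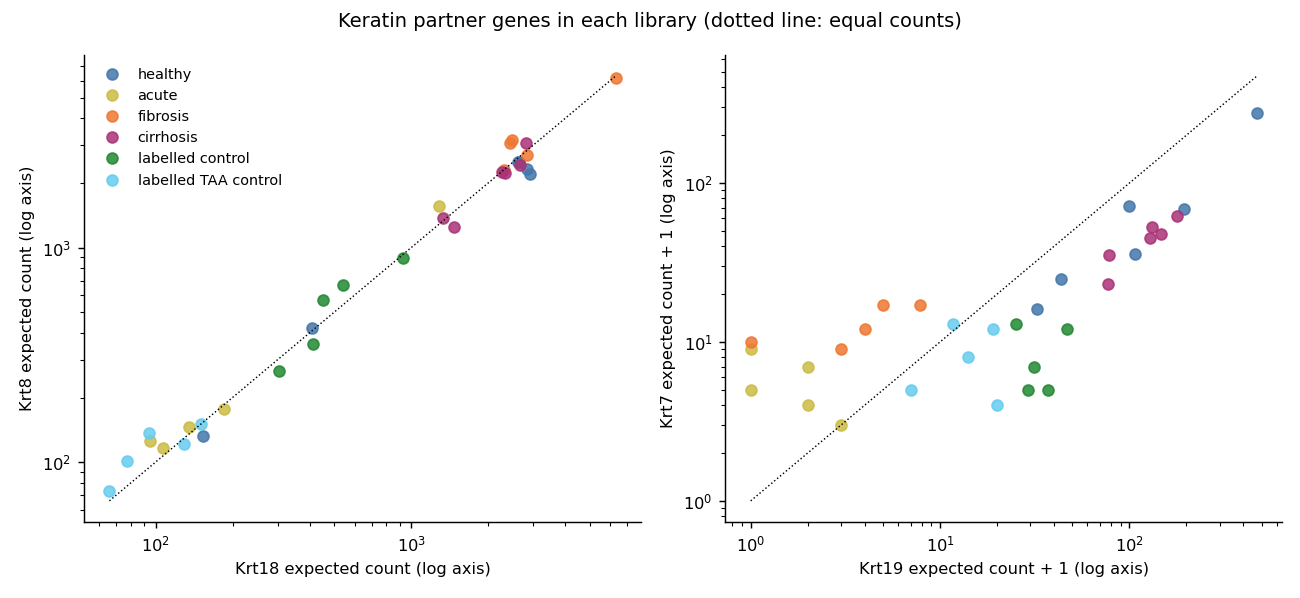
Expected counts of Krt8 against Krt18 (left) and of Krt7 against Krt19 (right, with 1 added to each count) in the 32 libraries, on log axes, with colours for the 6 groups and a dotted line where the counts are equal, which is not equality of transcripts because genes differ in length. The Krt8 and Krt18 points follow the line over the whole range of counts, while the acute and fibrosis points of Krt7 and Krt19 lie at or above the line and those of the healthy and cirrhosis groups below it.

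Krt7 and Krt19, the keratins that bile duct and mesothelial cells add, were lowest in acute and fibrosis LSECs and stood higher again in cirrhosis. Krt19 ranged from 1.11 to 15.8 CPM in healthy libraries (median 3.38 CPM). Acute libraries held 2, 1, 0, 1 and 0 Krt19 reads, and fibrosis libraries 4, 6.84, 2, 3 and 0 expected reads. No acute or fibrosis library reached the lowest healthy one. Summed over groups, 4 acute against 941 healthy reads gave a level 247-fold higher in healthy LSECs (95% counting interval 96.1 to 908), and 16 fibrosis reads gave a level 55.5-fold higher in healthy LSECs (34.0 to 97.6). Healthy replicate 1 alone held 471 of the 941 reads, and without it the levels were 148-fold (57.6 to 547) and 33.4-fold higher (20.4 to 59.0). The fitted log2 fold changes were -6.91 in acute (SE 0.98, adjusted p = 3.95e-05) and -5.39 in fibrosis (SE 1.03, adjusted p = 0.000485), and they depend on how near-zero counts are handled. The fibrosis value was -4.76 without fibrosis replicate 17, the library with 0 reads, and the acute value was -7.71 with edgeR and -7.87 with DESeq2.

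Krt7 took the same path over a smaller range. Its healthy libraries ran from 0.536 to 9.24 CPM with a median of 1.63 CPM, against 0.0544, 0.0817, 0.222, 0.138 and 0.126 CPM in acute and 0.459, 0.499, 0.266, 0.316 and 0.262 CPM in fibrosis libraries. These levels rest on 2 to 8 reads a library in acute and 8 to 16 in fibrosis. At such counts Krt7 needed the healthy libraries to pass the filter, which fixed the fall in acute and favoured it in fibrosis. Again the acute and fibrosis libraries all lay under the lowest healthy one. Krt7 fell by 3.75 on the log2 scale in acute (SE 0.84, adjusted p = 0.00134) and by 2.20 in fibrosis (SE 0.74, adjusted p = 0.0177). edgeR gave -4.44 and -2.90 and DESeq2 -4.41 and -2.87 for the same comparisons. In cirrhosis, Krt7 stood at 0.559 to 1.32 CPM (median 1.07 CPM) and Krt19 at 1.53 to 3.85 CPM (median 3.09 CPM). Both genes were higher in all 6 cirrhosis libraries than in any fibrosis library. Krt7 rose by 1.40 (SE 0.33, adjusted p = 0.00206) and Krt19 by 5.05 (SE 0.68, adjusted p = 2.36e-05) from fibrosis to cirrhosis, and in reads Krt19 was 29.3-fold higher (17.9 to 51.6). Without fibrosis replicate 17 the Krt19 rise was 4.41. Against healthy LSECs, cirrhosis passed the test neither for Krt7 (-0.84, 95% confidence interval -2.13 to 0.45, adjusted p = 0.245) nor for Krt19 (-0.40, -1.57 to 0.77, adjusted p = 0.546). DESeq2 did call Krt7 lower in cirrhosis (-1.49, adjusted p = 0.0222), and edgeR gave -1.50 with an adjusted p = 0.05003.

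The proportion of Krt7 to Krt19 counts, unlike that of Krt8 to Krt18, differed by stage. It lay between 0.33 and 0.724 in the 6 healthy libraries and between 0.289 and 0.442 in the 6 cirrhosis libraries. In the 4 fibrosis libraries with reads of both genes it lay between 2.34 and 4, and in the 3 such acute libraries between 1 and 6. The fibrosis and acute ratios were above every healthy and cirrhosis ratio, but they rest on 1 to 6.84 Krt19 reads a library. From fibrosis to acute LSECs neither gene could be tested after the filter on low counts, although Krt7 was higher in all 5 fibrosis libraries than in any acute one.

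Epcam was up-regulated in fibrosis and in cirrhosis, and it was the gene of the 7 whose cirrhosis libraries did not overlap the healthy ones. Healthy libraries held 0.0715 to 1.24 CPM (2 to 48 reads) with a median of 0.485 CPM, and acute libraries 0.436, 0.245, 0.25, 0.276 and 0.474 CPM. Acute and healthy libraries overlapped and the test was not passed (log2 fold change -0.32, 95% confidence interval -1.68 to 1.04, adjusted p = 0.649). Fibrosis libraries held 2.64, 1.59, 7.85, 14.2 and 7.32 CPM. The lowest of them, replicate 13, was above the highest healthy library. Epcam rose 12.5-fold over healthy (3.64, SE 0.79, adjusted p = 0.00119) and 16.2-fold over acute LSECs (4.02, SE 0.86, adjusted p = 0.0115). Cirrhosis libraries were more even, at 2.50 to 3.91 CPM (median 3.42 CPM), and all of them were above all healthy libraries. The rise over healthy was 7.71-fold (2.95, SE 0.47, adjusted p = 0.000304). Healthy libraries fell short of the filter alone, so the fibrosis and cirrhosis tests against them relied on the higher group, which favoured a rise. Cirrhosis and fibrosis did not differ past the threshold (-0.63, 95% confidence interval -1.68 to 0.42, adjusted p = 0.242), except with DESeq2 (-0.99, adjusted p = 0.0326) or without fibrosis replicate 13 (-1.05, adjusted p = 0.0318).

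Cdh1, which encodes E-cadherin, fell in the acute stage and lay within the healthy range in fibrosis and cirrhosis. Its healthy libraries ran from 6.40 to 74.8 CPM with a median of 46.1 CPM, and its acute libraries were at 2.86, 2.10, 1.81, 5.60 and 1.36 CPM, all below the lowest healthy library. The decrease was 10.9-fold (-3.45, SE 0.87, adjusted p = 0.00309). Acute replicate 4, the highest for Krt8 and Krt18, was also the highest for Cdh1, and healthy replicates 3 (7.04 CPM) and 5 (6.40 CPM), the lowest for the keratin pair, were the lowest here. Fibrosis libraries held 7.74, 17.1, 36.5, 64.1 and 39.8 CPM, an 11.1-fold increase over acute LSECs (3.47, SE 0.83, adjusted p = 0.0176). The cirrhosis libraries lay within 19.7 to 46.8 CPM (median 25.2 CPM). Compared with healthy LSECs, Cdh1 had a log2 fold change of -0.02 in fibrosis (95% confidence interval -1.69 to 1.65, adjusted p = 0.982) and -0.04 in cirrhosis (-1.32 to 1.24, adjusted p = 0.956), so that changes of 2-fold in either direction remain inside both intervals.

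Sox9, the regulator of bile duct development, was counted in few reads. In CPM it ranged from 0 to 0.636 in healthy libraries (median 0.456), 3 of the 5 acute libraries held 0 reads and the others 2 and 1, and the fibrosis libraries held 2, 0, 2, 4 and 0 reads. Healthy replicate 5, lowest in Krt8, Krt18 and Cdh1, held 0 Sox9 reads, so the groups overlapped. Sox9 did not pass the filter on low counts in acute or fibrosis against healthy or against each other and was not tested there. From 69 healthy and 3 acute reads, the level was 24.1-fold higher in healthy LSECs (95% counting interval 7.92 to 120). Cirrhosis libraries held 0.432 to 1.35 CPM (median 0.707 CPM), all above the highest fibrosis library (0.115 CPM). The rise over fibrosis was 4.16 (SE 0.63, adjusted p = 6.23e-05), which in reads, 224 against 8, was 17.8-fold (8.90 to 41.8). Cirrhosis against healthy gave a log2 fold change of 1.68 (95% confidence interval 0.13 to 3.22) with an unadjusted p = 0.0354 and an adjusted p = 0.0592. Sox9 passed the filter there through the cirrhosis libraries (17 to 68 reads), as the healthy ones (0 to 22 reads) fell short alone. A rise was thus favoured. Without healthy replicate 5, the library with 0 reads, the estimate was 0.90 (adjusted p = 0.0944), and quality weights gave 0.88 (adjusted p = 0.153). Over the 12 fits with 1 library left out the adjusted p ran from 0.0445 to 0.114. That comparison crossed the threshold without healthy replicate 1 (adjusted p = 0.0453) or replicate 6 (adjusted p = 0.0445), with upper-quartile factors (adjusted p = 0.0431), without TMM (adjusted p = 0.0275) and in the single fit over the CCl4 groups (adjusted p = 0.0253).

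From acute to cirrhosis, all 7 genes were up-regulated, by 2.85 on the log2 scale for Krt8, 2.94 for Krt7, 3.06 for Krt18, 3.31 for Epcam, 3.43 for Cdh1, 5.09 for Sox9 and 6.54 for Krt19. Krt7, Krt19 and Sox9, at 23, 4 and 3 acute reads, passed the filter on low counts only through the cirrhosis libraries. Their direction here was therefore fixed by the filter. Their values also depend on how near-zero counts are handled, and DESeq2 gave 5.77 for Sox9. The adjusted p-values ran from 1.84e-07 for Epcam to 0.000165 for Krt8. Krt8 was the gene whose libraries overlapped, as acute replicate 4 (35.8 CPM) lay above cirrhosis replicates 3 (31.8 CPM) and 6 (34.1 CPM), and the other 6 genes did not overlap, where 65.9% of all genes tested did not. Without acute replicate 4 the rise was 3.55 for Krt8 and 3.73 for Krt18, and edgeR gave 2.20 for Krt8 and 2.46 for Krt18.

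**Figure D3:**
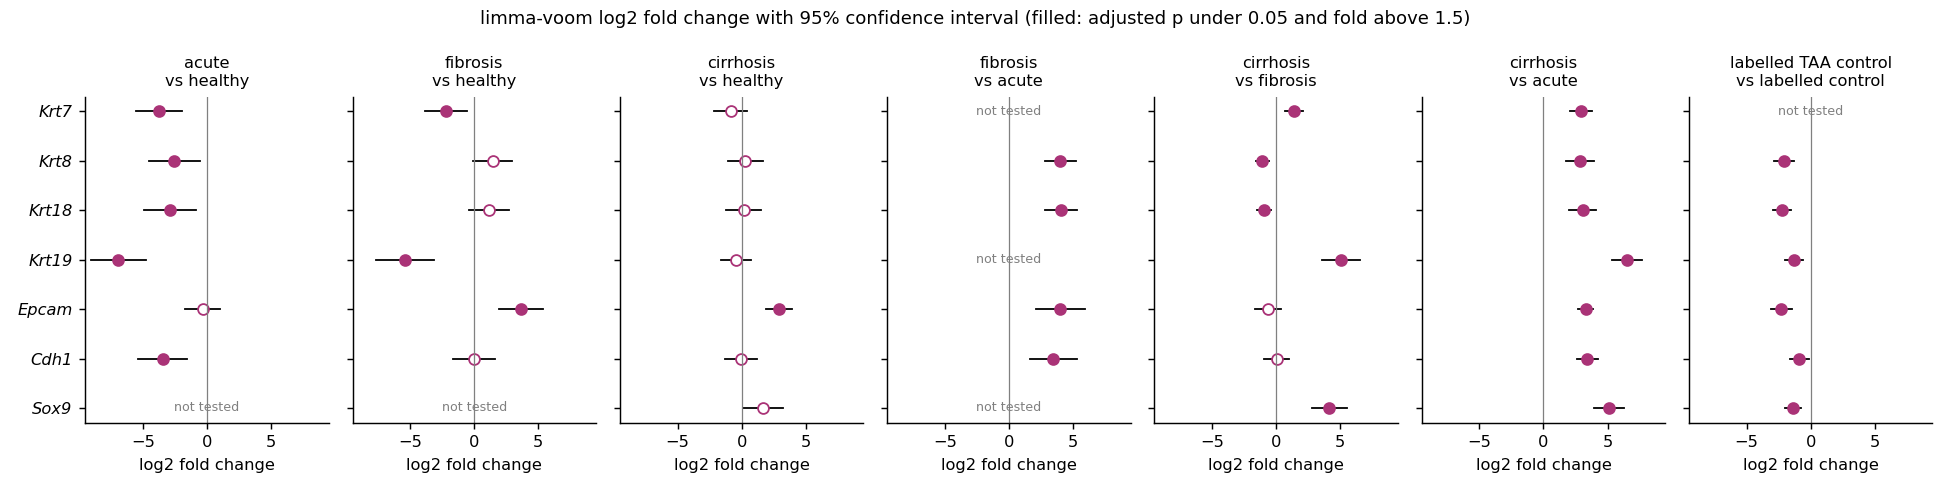
Log2 fold change (first group against the second) of each gene in the 7 comparisons, from limma-voom, with its 95% confidence interval as a line. Filled points passed the adjusted p of 0.05 and the 1.5-fold threshold, and genes under the filter on low counts are written as not tested. The acute comparison holds 5 filled points left of 0, and cirrhosis against acute holds 7 right of 0.

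In the TAA experiment, the 6 genes tested were all lower in the group labelled TAA control than in the group labelled control, where 14.9% of all genes were called lower and 27.6% in either direction. Epcam was at 1.62, 2.52, 3.12, 2.99 and 4.74 CPM in the group labelled control (replicates 1 to 5) and at 0.373, 0.467, 0.494, 0.948 and 0.797 CPM in the group labelled TAA control (replicates 10, 12, 13, 14 and 15). The groups did not overlap, and Epcam was lower by 2.29 on the log2 scale, or 4.91-fold (SE 0.38, adjusted p = 0.000687). Krt8 was at 9.37, 12.5, 20.7, 23.5 and 26.7 CPM against 5.09, 4.57, 3.98, 2.88 and 4.02 CPM, a difference of -2.09 (SE 0.37, adjusted p = 0.000962). Krt18 (-2.24, SE 0.32, adjusted p = 0.000285), Krt19 (-1.30, SE 0.33, adjusted p = 0.00727) and Sox9 (-1.41, SE 0.28, adjusted p = 0.00203) did not overlap either, which held for 35.4% of all genes tested. In a single fit over all 6 groups, Krt19 (adjusted p = 0.165), Sox9 (adjusted p = 0.086) and Cdh1 (adjusted p = 0.48) were no longer called. Sox9 held 13 to 31 reads a library in the group labelled control and 5 to 8 in the other. Sox9 therefore passed the filter only through the group labelled control, which fixed its direction. Krt19, at 6 to 19 reads in the group labelled TAA control, needed the other group to pass, which favoured a lower value.

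Cdh1 was the least certain of the 6. Its libraries held 4.79, 4.42, 7.98, 6.93 and 8.77 CPM against 4.68, 2.10, 1.98, 5.05 and 5.70 CPM, which overlapped, and the difference was -0.88 (SE 0.33, adjusted p = 0.0453). The call was lost without replicate 3, 4 or 5 of the group labelled control (adjusted p = 0.0811, 0.0781 and 0.101) or replicate 12 or 13 of the group labelled TAA control (adjusted p = 0.119 and 0.124). It was also lost with edgeR (adjusted p = 0.0758). Krt7, at 3 to 12 reads a library in both groups, was not tested and had means of 0.251 ± 0.128 CPM and 0.264 ± 0.146 CPM (SD, n = 5 and 5). Within the latter group, replicates 14 and 15 differed more than counting noise alone, with a chi-square of 3.05 per degree of freedom, but far less than any other pair (25.2 or more), and with their mean counted as 1 library the same number of genes, 6, was called.

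Other genes of the bile duct lineage did not form a single pattern with the 7. Of the 18 cholangiocyte genes in the tables (the members apart), 13 were tested in cirrhosis against healthy LSECs, 7 rose and 0 fell, where 27.1% of all genes rose and 24.7% fell, with a median log2 fold change of 1.02 where that of all genes was 0.07. Among them were the chloride channel gene Cftr (3.44, adjusted p = 0.000401), Prom1, which encodes prominin 1 (3.48, adjusted p = 0.000114), the tetraspanin gene Tspan8 (3.70, adjusted p = 0.000577) and Spp1, which encodes osteopontin (3.89, adjusted p = 0.0064). Cftr and Prom1 were low in healthy libraries (means of 0.0537 and 0.234 CPM) and passed the filter through the cirrhosis ones (0.494 and 2.69 CPM). Such genes enter the count of this list mainly as rises. In acute LSECs, 7 were tested, 2 rose and 3 fell, where 35.5% of all genes rose and 37.9% fell, the second rise being that of Bicc1 (0.78, adjusted p = 0.0408), which is named after its value was seen. Spp1, also made by macrophages and other cells, rose there (7.67, adjusted p = 5.26e-08), while Tspan8 (-4.32, adjusted p = 2.67e-05) and the tight junction gene Cldn4 (-3.54, adjusted p = 0.00495) were among those that fell. In fibrosis, 4 of 8 rose (Spp1, Ehf, Bicc1 and Ggt1), where 35.3% of all genes rose, and 2 fell (Tspan8 and Cldn4), where 34.9% fell, named here in full after their values were seen. Cftr stood at 0.0537 ± 0.0737 CPM in healthy, 0.0056 ± 0.0124 in acute, 0.0419 ± 0.0355 in fibrosis and 0.494 ± 0.163 in cirrhosis libraries. In the TAA experiment, 9 of 11 tested cholangiocyte genes were lower in the group labelled TAA control and 0 higher, where 14.9% of all genes were lower and 12.7% higher. Cftr (0.102 CPM in the group labelled TAA control) passed the filter there only through the group labelled control.

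Epithelial junction genes moved with Cdh1 in part. In acute LSECs, 15 of 23 tested fell and 3 rose (Dsg2, Grhl1 and Ovol1), against 37.9% and 35.5% of all genes, among the former the claudin gene Cldn3 (-5.55, adjusted p = 0.00557) and the plakophilin gene Pkp3 (-5.69, adjusted p = 7.53e-05). From acute to fibrosis, 14 of 21 rose and 0 fell, where 10.2% of all genes rose. In cirrhosis against healthy, 7 of 26 rose, a share close to the 27.1% of all genes, and 2 fell (Tjp3 and Pkp3), where 24.7% of all genes fell, and the serine protease gene Prss8 (2.13, adjusted p = 0.0058) and the periplakin gene Ppl (1.95, adjusted p = 0.000216) were among those that rose. Of the cadherins, catenins and transcriptional repressors that act with or on E-cadherin, 3 of 10 tested rose and 3 fell in acute LSECs (35.5% and 37.9% of all genes), with Ctnnd1 and Twist1 the smallest rise and fall. Jup, the gene of plakoglobin, fell there (-3.56, adjusted p = 1.61e-08), as did the repressor gene Snai1 (-2.52, adjusted p = 3.85e-06), whereas the repressor gene Zeb2 (1.99, adjusted p = 0.000552) and Cdh2, the gene of N-cadherin (2.40, adjusted p = 5.41e-05), rose. In cirrhosis, 4 of 11 tested rose and 1 fell (27.1% and 24.7% of all genes), with a median of 0.05 on the log2 scale. Cdh2 (2.10, adjusted p = 0.000281), Snai2 (1.81, adjusted p = 0.00395), Zeb2 (1.42, adjusted p = 0.00649) and Zeb1 (1.18, adjusted p = 0.00355) rose and Jup (-1.01, adjusted p = 0.000201) fell, at a Cdh1 level that did not differ from healthy past the threshold. In the list of proteins that bind or accompany keratin filaments, 2 of 8 genes rose and 5 fell in acute LSECs (35.5% and 37.9% of all genes). In cirrhosis, 3 rose and 1 fell (27.1% and 24.7% of all genes). Vim, the gene of vimentin, fell in acute (-1.66, adjusted p = 0.00025) and rose in cirrhosis (1.08, adjusted p = 0.0105). Pnn rose in both (3.24, adjusted p = 5.42e-06, and 1.32, adjusted p = 0.00508), and Fbf1 was the gene that fell in cirrhosis (-0.89, adjusted p = 0.000367).

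Libraries of the same group differed from each other together in Krt8, Krt18 and Cdh1, and together in Krt7 and Krt19. Deviations from the group mean in log2(CPM + 0.5), over 32 libraries that share their preparation and depth within a library, gave r = 0.98 for Krt8 with Krt18, 0.79 for Krt18 with Cdh1 and 0.75 for Krt8 with Cdh1. Krt7 and Krt19 gave 0.88 with each other, and 0.37 or less with Krt8, Krt18 and Cdh1. Such r values weigh most on the groups with the widest spread. For Krt7 the SD of the log2 level was 1.18 in healthy libraries and 0.15 to 0.33 in the other groups. For Krt19 it was 1.22 in healthy libraries and 0.06 to 0.44 in the others. For Krt8 it was 1.67 in healthy, 1.37 in acute and 0.27 to 0.62 in the other groups. Epcam reached 0.45 at most with any other member (Cdh1), and Sox9 gave 0.61 with Krt8, 0.59 with Krt18, 0.51 with Cdh1 and 0.39 with Epcam. Among 13494 genes, Krt8 and Krt18 were each the nearest to the other, and next came Ugt1a5 (0.93) and Lsr (0.93) for Krt8 and Eps8l2 (0.95) and Lsr (0.95) for Krt18. Krt7 was nearest to Fxyd3 (0.94) and Upk3b (0.93), and Krt19 to Upk3b (0.92) and Ptgds (0.88). The nearest to Cdh1 were Slc39a4 (0.87) and Sh2d4a (0.86), to Epcam Tmem62 (0.78) and Il7 (0.75), and to Sox9 Col18a1 (0.77) and Slc22a23 (0.76).

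**Figure D4:**
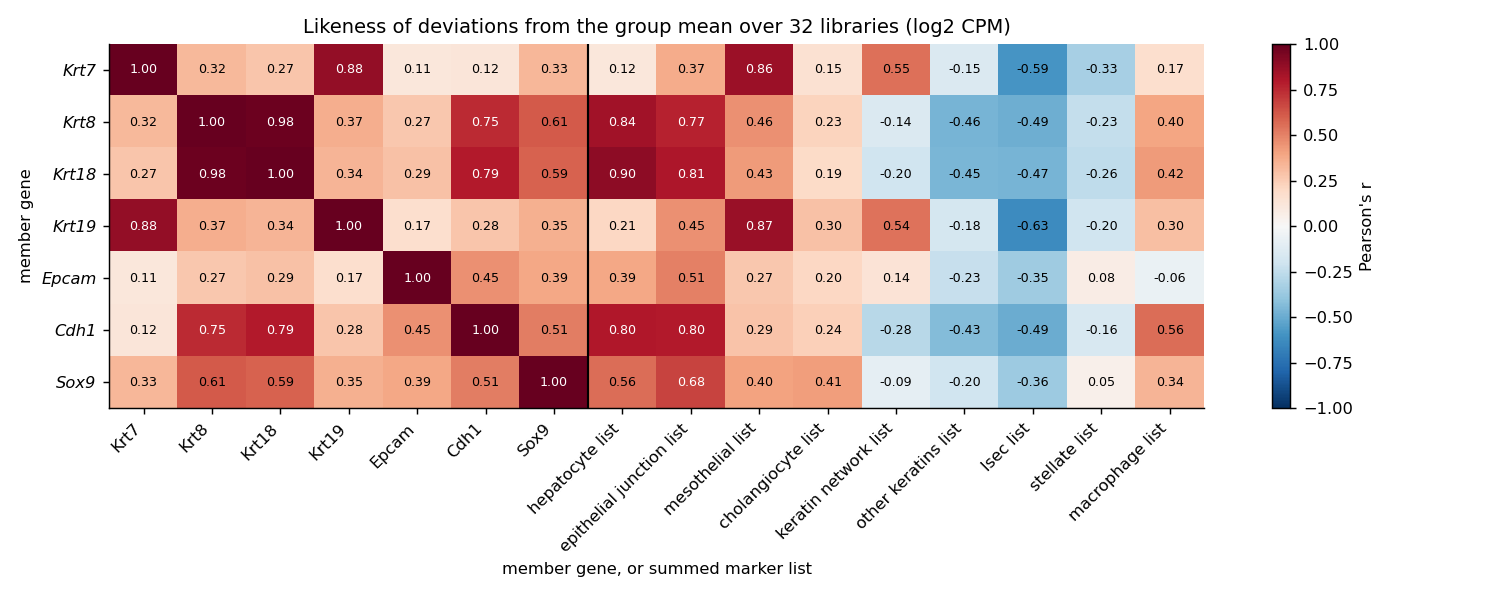
Pearson's r between deviations from the group mean, in log2 CPM over 32 libraries, of each gene (rows) with the other members (left of the line) and with the summed level of marker lists (right of the line). Krt8, Krt18 and Cdh1 reach 0.84, 0.90 and 0.80 with the hepatocyte list, Krt7 and Krt19 reach 0.86 and 0.87 with the mesothelial list, and Sox9 is the highest, at 0.41, with the summed cholangiocyte list, of which Spp1 makes up 64.3 to 90% in acute libraries.

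The members also differed in which marker lists they went along with inside groups. With the summed hepatocyte markers, r was 0.84 for Krt8, 0.90 for Krt18 and 0.80 for Cdh1, 0.56 for Sox9 and 0.39 for Epcam, against 0.12 for Krt7 and 0.21 for Krt19. The summed epithelial junction genes gave 0.77 for Krt8, 0.81 for Krt18, 0.80 for Cdh1 and 0.68 for Sox9, and 0.37 to 0.51 for the other 3. With the summed mesothelial markers, r was 0.86 for Krt7 and 0.87 for Krt19, and between 0.27 and 0.46 for the other 5. Krt7 and Krt19 also gave 0.61 and 0.52 with the lymphocyte and 0.55 and 0.54 with the neutrophil markers. Healthy libraries weigh most in the values of Krt7 and Krt19. Healthy replicate 1 was the highest of its group in both genes and in the mesothelial (98.4 CPM), lymphocyte (193 CPM) and neutrophil sums (46.6 CPM). With the summed cholangiocyte markers, r lay between 0.15 (Krt7) and 0.41 (Sox9), but a few abundant genes carry that sum, and Spp1 alone made up 64.3 to 90% of it in acute libraries. With Spp1 left out, r lay between 0.23 (Krt7) and 0.60 (Sox9), and with equal weight for each gene of the list between 0.40 (Krt7) and 0.64 (Sox9), both of them measures chosen after seeing the data.

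Between groups, hepatocyte markers moved the same way as the keratin pair in some comparisons and the opposite way in another. All 20 fell in acute LSECs (37.9% of all genes), where the pair fell. In fibrosis against acute, 19 of 20 rose (10.2% of all genes), where the pair rose. From fibrosis to cirrhosis, 13 of 20 rose (34.3% of all genes) and 0 fell (29.5%), while Krt8 and Krt18 fell. Against healthy LSECs, 9 of 20 fell (34.9% of all genes) and 0 rose (35.3%) in fibrosis. The estimates of the pair were positive there but not called. In cirrhosis against healthy, 3 of 20 fell, where 24.7% of all genes fell. Healthy replicates 5 (1518 CPM) and 3, the lowest in Krt8, Krt18 and Cdh1, had the lowest hepatocyte sums of their group, and acute replicate 4 (1103 CPM) and fibrosis replicate 16 (6905 CPM), the highest in Krt8 and Krt18, had the highest. Relative to 1000 CPM of hepatocyte markers in the same library, Krt8 was at 2.24 to 4.37 CPM in healthy, 8.68 to 32.5 CPM in acute, 15.3 to 59.2 CPM in fibrosis and 3.24 to 9.20 CPM in cirrhosis libraries. Per hepatocyte marker, Krt8 was thus higher in every acute and fibrosis library than in any healthy one, although its own level was lower in 4 of the 5 acute libraries than in 5 of the 6 healthy ones. Krt18 gave 2.35 to 4.57 in healthy and 15.3 to 46.3 CPM in fibrosis libraries by the same measure. Cdh1 gave 1.61 to 4.21 in healthy and 4.58 to 10.5 in fibrosis libraries, and Epcam 0.00788 to 0.16 in healthy, 0.949 to 2.06 in fibrosis and 0.142 to 1.06 in cirrhosis libraries. What part the hepatocyte markers have in the keratin and Cdh1 differences was not tested.

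Mesothelial markers took the course of Krt7 and Krt19 between groups, as did several other lists. Of 7 mesothelial genes tested, 5 fell in acute and 5 in fibrosis against healthy LSECs, and 6 of 8 rose from fibrosis to cirrhosis. Of all genes, 37.9% fell, 34.9% fell and 34.3% rose in these 3 comparisons. Upk3b, the gene of uroplakin 3B, fell in acute LSECs (-6.63, adjusted p = 5.27e-05). In the same 3 comparisons, macrophage markers fell in 10 of 11 and 11 of 11 and rose in 12 of 12, lymphocyte markers fell in 5 of 6 and 4 of 7 and rose in 7 of 8, LSEC markers fell in 12 of 15 and 13 of 15 and rose in 13 of 15, and hepatocyte markers fell in 20 of 20 and 9 of 20 and rose in 13 of 20. The mesothelial sum ran from 5.29 to 98.4 CPM in healthy, 1.42 to 3.47 in acute, 4.11 to 7.2 in fibrosis and 9.39 to 18.9 CPM in cirrhosis libraries. Healthy replicate 1 was the highest in this sum and in Krt7 (9.24 CPM) and Krt19 (15.8 CPM). Per 1000 CPM of mesothelial markers, Krt7 was at 47.4 to 101 CPM in healthy, 21.98 to 69.6 in acute, 41.2 to 102 in fibrosis and 40.8 to 79.1 CPM in cirrhosis libraries, ranges that overlap, while Krt19 was at 132 to 209 CPM in healthy, 0 to 21.98 in acute, 0 to 44.6 in fibrosis and 141 to 227 CPM in cirrhosis libraries. For Krt19 the acute and fibrosis libraries stayed apart from the healthy and cirrhosis ones on this measure, and for Krt7 they did not. The part of these lists in the differences of Krt7 and Krt19 was not tested.

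**Figure D5:**
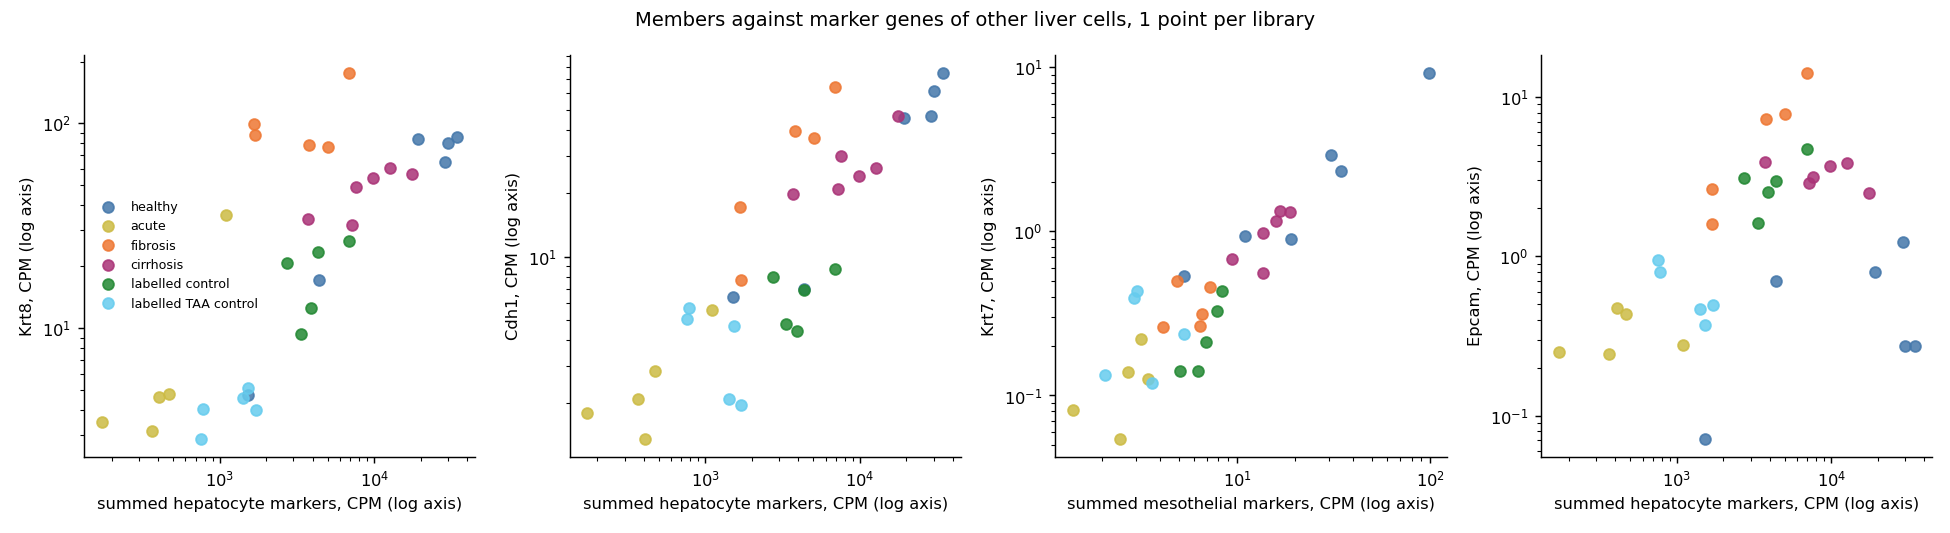
Level of Krt8, Cdh1, Krt7 and Epcam in CPM against the summed CPM of hepatocyte markers (mesothelial markers for Krt7) in each of the 32 libraries, on log axes, with colours for the 6 groups. The 5 fibrosis libraries, at hepatocyte sums of 1676 to 6905 CPM, held 76.8 to 176 CPM of Krt8. Within that range of sums, healthy replicate 3 (sum 4363 CPM) held 17.2 CPM and cirrhosis replicate 6 (sum 3706 CPM) 34.1 CPM. No acute library had such a sum (at most 1103 CPM). Among the CCl4 groups, Krt7 was higher in groups with a higher mesothelial sum, but points did not follow the sum within every group. In the group labelled TAA control, replicate 13 (sum 2.93 CPM) held 0.395 CPM of Krt7 and replicate 15 (sum 3.63 CPM) 0.12 CPM.

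The same markers went along with the TAA experiment. Hepatocyte sums were 2730 to 6904 CPM in the group labelled control and 755 to 1707 CPM in the group labelled TAA control. In the latter, 15 of 20 hepatocyte genes were called lower and 1 higher, where 14.9% of all genes were lower and 12.7% higher. Per 1000 CPM of these markers, Krt8 was at 2.81 to 7.57 CPM in the first and 2.33 to 5.16 CPM in the second group, which overlapped, unlike the Krt8 levels themselves. Of the stellate cell genes, 13 of 14 were lower in the group labelled TAA control, where 14.9% of all genes were lower. Their part in the differences of the 6 epithelial genes was not tested.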

How the data were processed

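Poly(A) RNA of LSECs was sequenced from strand-specific libraries. Per the labels' protocols and processing notes, the authors checked and trimmed reads with FastQC and Trim Galore, aligned them with STAR to the assembly Rnor_6.0 and estimated gene counts by RSEM (versions not given in the sources used here). The deposited values are RSEM expected counts per gene and library, not normalized and not pooled, in which reads that fit several genes are divided between them.

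Expected counts were rounded and analysed in R 4.3.3 with limma 3.58.1 and edgeR 4.0.16 (DESeq2 1.42.0 as an alternative). Each comparison was a limma-voom fit with TMM factors, filterByExpr and only the libraries of the 2 groups, without covariates. Adjusted p-values are Benjamini-Hochberg values over all genes tested, and called genes also exceeded a fold of 1.5. The study's own rule, with an unadjusted p-value, was kept as an alternative. The steps were tested on simulated counts. CPM used TMM factors over the 22 CCl4 libraries and, separately, the 10 TAA libraries, and log2 CPM a pseudocount of 0.5. Counting intervals are exact 95% intervals on summed reads and cover counting error only. Totals ranged from 25646531 to 46464289 counts. Plots were made in Python 3.11.15 using matplotlib 3.10.9.

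Groups and replicate numbers came from the labels. Replicate numbers recur in healthy, acute and cirrhosis groups, but same-numbered libraries did not deviate together throughout (r from -0.24 to 0.29). In cirrhosis against healthy, r was 0.29, 0.16 and 0.24 for replicates 1 to 3 and -0.24, -0.21 and -0.22 for replicates 4 to 6. Acute against healthy gave 0.036 to 0.19 and cirrhosis against acute -0.089 to 0.091. Same-numbered libraries were not treated as pairs, except in the replicate block used as an alternative. The members, gene lists and tests were chosen with earlier results of these data known. Besides the 7 members, the genes named are up to 4 called genes with the largest fold change per list, in acute and in cirrhosis against healthy, and the 3 genes nearest to each member. Alternatives were other tools, scalings, filters, weights, a single fit over all groups, the replicate block and each library left out. The mean of replicates 14 and 15 of the TAA experiment as 1 library, the Krt19 read ratios with a healthy library left out and the other summaries of the cholangiocyte list were chosen after seeing the data. Promoter sequences are RefSeq windows of GRCr8. Gene positions in Rnor_6.0 were not used here.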

Additional observations from a re-analysis of the deposited data

Results flagged for a closer look

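Among 40 groups of member levels examined for a library that stands apart, 3 were found where chance gives about 2. Krt8 in acute replicate 4 was at 35.8 CPM, where the nearest other acute library was at 4.79 CPM. Krt18 in the same library was at 29.6 CPM, with the nearest other at 5.04 CPM. Krt18 in fibrosis replicate 16 was at 181 CPM, with the nearest other at 82.9 CPM. These 2 libraries also had the highest summed hepatocyte markers of their groups, at 1103 CPM and 6905 CPM, and the part of those cells was not tested.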

How the results depend on the processing

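Over the 7 comparisons, members called changed by more than 1.5 times in these settings. A single fit over the 4 CCl4 groups gave 5 for fibrosis against healthy (3 in the fit of 2 groups), 2 for cirrhosis against healthy (1) and 3 for cirrhosis against fibrosis (5), where the stricter filter, under which fewer members were tested, also gave 3. A single fit over all 6 groups gave 3 in the TAA experiment (6). Cirrhosis against healthy gave 2 with the unadjusted p, DESeq2, upper-quartile factors and no TMM. Where not stated otherwise, the cause was not tested. With 1 library left out, the counts were 4 to 6 (acute against healthy), 3 to 3 (fibrosis against healthy), 1 to 2 (cirrhosis against healthy, 2 without healthy replicate 1 or 6), 4 to 4 (fibrosis against acute), 5 to 6 (cirrhosis against fibrosis), 7 to 7 (cirrhosis against acute) and 5 to 6 (TAA experiment). The replicate block gave 5, 2 and 7 members called in acute against healthy, cirrhosis against healthy and cirrhosis against acute, and the added call was Sox9 in cirrhosis (log2 fold change 1.39, adjusted p = 0.0472).

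Signs that turned belonged to differences not called. In cirrhosis against healthy, Krt8 was -0.23 with edgeR, -0.23 with DESeq2 and -0.36 with quality weights, Krt18 was -0.40, -0.40 and -0.52, and Cdh1 was 0.10 with upper-quartile factors, 0.31 without TMM and 0.056 with the stricter filter. Cdh1 was 0.0095 with DESeq2 size factors and 0.38 without TMM in fibrosis against healthy, and -0.24 (edgeR), -0.21 (DESeq2) and -0.076 (no TMM) in cirrhosis against fibrosis. Epcam was 0.10 without TMM in acute against healthy. With 1 library left out, signs turned for Epcam in acute (-0.79 to 0.11), Cdh1 in fibrosis (-0.46 to 0.44), Krt8 (-0.32 to 0.52), Krt18 (-0.44 to 0.44), Krt19 (-0.75 to 0.031) and Cdh1 (-0.47 to 0.23) in cirrhosis against healthy, and Cdh1 in cirrhosis against fibrosis (-0.42 to 0.36).

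Scaling by totals without TMM shifted the median log2 fold change of all genes by 0.41 (acute), 0.40 (fibrosis) and 0.35 (cirrhosis against healthy, where the share of called genes that were higher went from 52.2% to 71.3%). Counts under 10 in some or all libraries limit what can be said of Krt7, Krt19 and Sox9 in acute and fibrosis LSECs and of Epcam in healthy and acute LSECs. The same limit holds for Sox9 in healthy LSECs (0 and 3 reads in replicates 5 and 3). In the TAA experiment it holds for Krt7 in both groups, and for Krt19 and Sox9 in the group labelled TAA control.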

Other observations

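Other type II keratins were measured too, and their levels were lowest in the acute and fibrosis stages. Krt79 stood at 751 ± 216 CPM in healthy (SD, n = 6), 13.7 ± 12.8 in acute (n = 5), 23.7 ± 8.67 in fibrosis (n = 5) and 455 ± 109 CPM in cirrhosis (n = 6) libraries. In acute LSECs, Krt79 (log2 fold change -6.28, adjusted p = 2.2e-07), Krt76 (-6.21, adjusted p = 1.42e-06), Krt4 (-5.48, adjusted p = 1.03e-06) and Krt1 (-5.29, adjusted p = 1.87e-06) fell. Of 9 tested keratins outside the members, 8 fell, where 37.9% of all genes fell, and 1 rose, the type I keratin gene Krt10 (0.76, adjusted p = 0.0199), named after its value was seen. Krt23, also named after its values were seen, was not called in acute or fibrosis. It stood at 0.0327 ± 0.0284 CPM in healthy, 0.58 ± 0.305 in acute and 1.28 ± 1.14 CPM in fibrosis libraries. In cirrhosis, 5 of 9 fell, where 24.7% of all genes fell, and among them were Krt76 (-1.49, adjusted p = 0.000784), Krt4 (-1.27, adjusted p = 0.000519), Krt80 (-1.14, adjusted p = 0.00584) and Krt1 (-0.96, adjusted p = 0.00608). In the gene order of GRCr8, Krt1, Krt76, Krt4 and Krt79 lie in the same keratin cluster as Krt8 and Krt18, with Krt78 between Krt79 and Krt8. Within groups the summed level of these other keratins went against that of the pair, with r = -0.46 for Krt8 and -0.45 for Krt18 over 32 libraries. Krt79 carries most of that sum, whose median was 768 CPM in healthy and 505 CPM in cirrhosis libraries. The r values therefore describe mainly this 1 gene and not the other keratins in general. In the TAA experiment Krt79 was at 694 ± 136 CPM and 660 ± 60.6 CPM (n = 5 and 5), while Krt8 differed between the same groups.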
